A study of Mus musculus with 4 samples.

Results

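Brown fat makes heat when noradrenaline from sympathetic nerves binds adrenergic receptors on brown adipocytes. Transcripts of 9 genes of that signalling chain were followed here: the receptors Adrb1, Adrb3 and Adra2a, the G protein subunit Gnas, the adenylyl cyclase Adcy3, the protein kinase A subunit Prkar2b, the phosphodiesterases Pde3b and Pde4d, and the G protein regulator Rgs2. They were chosen by gene symbol and are 9 of the 55387 gene rows of the data. RNA sequencing had been performed on brown adipose tissue of 4 male mice aged 15 weeks, with 1 library per mouse. The 2 control mice carry floxed Sox4 alleles (Sox4f/f), and the genotype label calls them WT. The 2 Sox4-MKO littermates carry the same floxed alleles and a Cre driven by Myf5, a gene active in the precursors of brown adipocytes and also of skeletal muscle, so the deletion is not restricted to fat. The question of the comparison was how brown fat transcription differs when the transcription factor SOX4 is deleted in that lineage. Housing was at an ordinary room temperature and no adrenergic drug or cold exposure is given for these mice.

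As background, the β-adrenergic receptors couple to Gαs, the product of Gnas, which activates adenylyl cyclases to make cyclic AMP (cAMP). cAMP binds the regulatory subunits of protein kinase A (PKA) and frees the catalytic subunits, which switch on lipolysis and, through CREB and PGC-1α, thermogenic genes such as Ucp1. Phosphodiesterases degrade cAMP, the α2-adrenergic receptors inhibit the cyclases through Gαi, and Rgs2 dampens signalling by Gα proteins. The β3 receptor, encoded by Adrb3, is the main β-adrenergic receptor of mouse brown adipocytes, and Prkar2b encodes RIIβ, the main PKA regulatory subunit of fat.

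Each value is an FPKM, the fragments of a gene corrected for transcript length and library size, deposited as 1 number per gene and library. Depth, estimated from the lowest values of long single-transcript genes, was about 12500000 to 17400000 fragments per library. Differences are given as log2 fold changes, that is, the difference between the genotype means of log2(FPKM + 1), Sox4-MKO minus Sox4f/f. This scale understates the change of genes near or below 1 FPKM. limma was fitted to all 12877 genes with a mean above 1 FPKM in at least one genotype. A gene is called lower or higher at an unadjusted p under 0.05, and its direction follows the labels. By this rule limma called 2090 genes, 16.2% of those tested. After Benjamini-Hochberg adjustment limma called 0 genes (0.0%), and the smallest adjusted p was 0.191, so each call below is one at an unadjusted p only. For a single value, the exact two-sided permutation test with 2 mice per label has a smallest possible p of 0.333.

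Sox4, the targeted gene, had 1.98 and 1.06 FPKM in Sox4f/f mice 1 and 2 and 0.98 and 3.06 FPKM under the Sox4-MKO label, in the same order. It was thus not lower under that label (log2 fold change 0.20, limma standard error 0.43, adjusted p = 0.843), and the genotypes overlapped. The tissue was rich in adipocyte transcripts in every library. All 6 brown adipocyte markers (Ucp1, Cidea, Elovl3, Cox8b, Ppara, Cpt1b) exceeded 1 FPKM in each. They summed to 7433 and 7323 FPKM in Sox4f/f and to 3638 and 4365 FPKM under the Sox4-MKO label. Elovl3 overlapped (3.24 and 1.64 against 1.31 and 2.52 FPKM), and the others were each lower in both mice of that label. The sums of the 6 general adipocyte markers overlapped between the labels, from 7930 to 10668 FPKM, of which Fabp4 alone had 5416 to 7518 FPKM. Adipoq, Fabp4 and Cidec overlapped. Plin1, Lipe and Pparg were each lower in both mice of the Sox4-MKO label than in both Sox4f/f mice. The 8 skeletal muscle markers (Acta1, Ckm, Mylpf, Tnnt3, Actn3, Myh1, Myh2, Myh4) were above 1 FPKM in every library. They summed to 167 and 621 FPKM in Sox4f/f mice 1 and 2, and to 12130 and 2158 FPKM under the Sox4-MKO label, in the same order. Of the other marker lists, those of white adipocytes (133 to 153 FPKM in Sox4f/f, 479 to 561 FPKM under the Sox4-MKO label), macrophages (96.7 to 135 and 187 to 212 FPKM), adipocyte progenitors (224 to 251 and 402 to 426 FPKM) and Schwann cells (18.6 to 40.4 and 46.4 to 63.6 FPKM) were also separate, and those of endothelial, red blood and lymphoid cells overlapped. Single genes within separate sums overlapped, Sox10 in the Schwann cell list and Myh4 in that of skeletal muscle. The smooth muscle and pericyte sum was separate (185 to 224 and 269 to 357 FPKM) through Des alone, a gene also high in skeletal muscle. The sum of its other 4 genes overlapped. In whole tissue, fewer cells of a type and less RNA per cell cannot be told apart, and the part of these marker transcripts in the results below was not tested. Counts are therefore also given without Sox4-MKO mouse 1, which stood apart by its muscle transcripts.

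Of the 9 genes, 8 passed the filter on low values and Adra2a did not. Gnas, Adcy3 and Prkar2b, which act in succession between receptor and kinase, were called lower in the libraries labelled Sox4-MKO. In these 3 genes both Sox4f/f mice lay above both other mice, as for 29.6% of all tested genes. The receptors Adrb1 and Adrb3, the phosphodiesterases Pde3b and Pde4d, and Rgs2 were not called. These 3 of 8 compare with 8.28% of all tested genes called lower, and 0 of 8 with 7.95% called higher. After adjustment over all genes limma called 0 of the 8, against 3 at an unadjusted p under 0.05. The same 3 genes were called without Sox4-MKO mouse 1. The median log2 fold change of the 8 was -0.29, and that of all tested genes was -0.051.

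**Figure D1:**
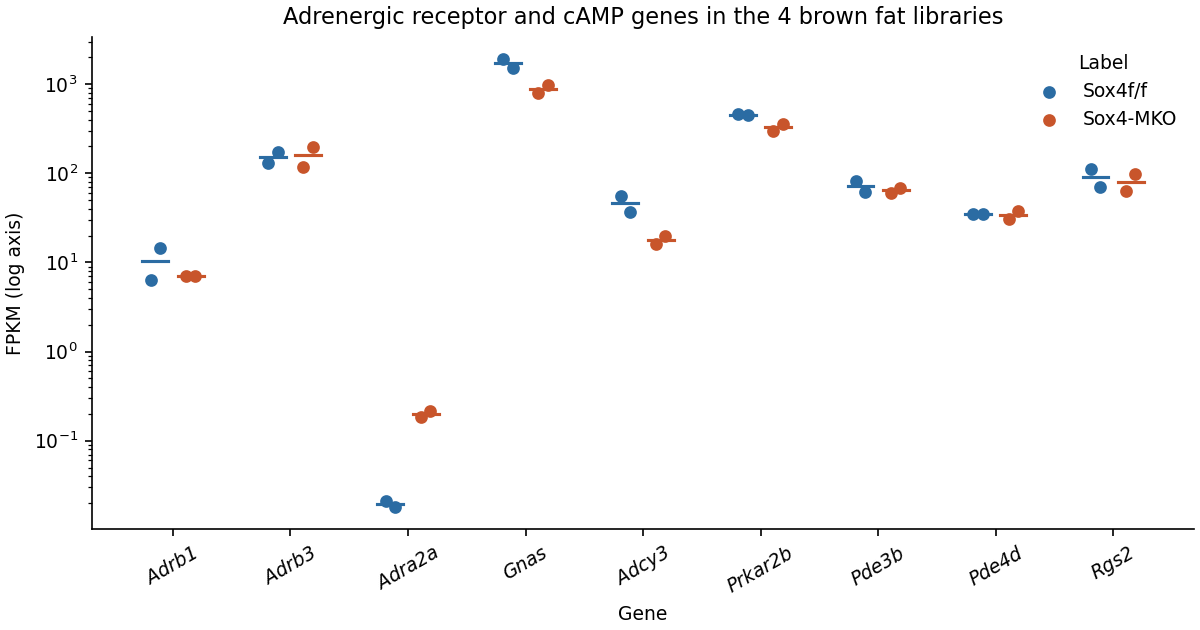
FPKM of the 9 adrenergic receptor and cAMP genes on a log axis. Each point is 1 mouse, each bar the mean of 2 mice, blue for Sox4f/f and orange for the Sox4-MKO label. The blue points lie above the orange points for Gnas, Adcy3 and Prkar2b, below them for Adra2a, and overlap with them for the other 5 genes.

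In levels, which FPKM gives per length, the chain was uneven. Gnas was the most abundant of the 9 in both genotypes, with a mean of 1713 FPKM in Sox4f/f, followed by Prkar2b at 455, Adrb3 at 153, Rgs2 at 91.6 and Pde3b at 71.7 FPKM. Adcy3 at 46.3, Pde4d at 35.0 and Adrb1 at 10.4 FPKM came next, and Adra2a was last at 0.0197 FPKM. The neighbours Rgs2 and Pde3b overlapped between mice in both genotypes, whereas all other neighbours were separate within each genotype. The order was the same under the Sox4-MKO label except that Adcy3 (17.9 FPKM) stood below Pde4d (34.3 FPKM).

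Short stretches of DNA before the transcription starts show whether the sequence bound by CREB occurs near these genes. RefSeq starts (GRCm38.p6) were at hand for 7 of the 9, and not for Adrb3 and Pde3b. The 250 bases before the first start listed were searched on both strands for the CREB half-site TGACG, for the full element TGACGTCA, which contains it and for the SOX motif AACAAAG. The half-site was found in Gnas, Adrb1, Adra2a and Rgs2, against 17.8% of all 32851 promoters listed. The full element (1.55% of all promoters) was in none of the 7, and the SOX motif (5.03%) was in Pde4d alone. The windows of Adcy3 and Prkar2b held none of these letters. The 7 windows were 38.8% to 75.6% G or C, against a median of 52.4% for all promoters, and 6 of them overlap an exon of another annotated transcript. Matches are a description of letters and not of binding. The stretches below are the half-sites of Gnas, the most abundant of the genes called lower, and of the receptors Adrb1 and Adra2a, each with 12 bases on either side, and, for contrast, the window of Rgs2 with 2 half-sites and that of Prkar2b with none, both ended before the first annotated exon. Half-sites are in capitals, read as CGTCA where they lie on the other strand, and all sequences run 5′ to 3′ on the strand of the gene.
Gnas (chr2:174327699-174327727, plus strand): aagaggttggggCGTCAtcaggctggtta
Adrb1 (chr19:56722015-56722043, plus strand): gctgcgggagccTGACGcgcggccccggg
Adra2a (chr19:54045178-54045206, plus strand): ccacgtgggggcTGACGccggctgctcgg
Rgs2 (chr1:144004162-144004399, minus strand): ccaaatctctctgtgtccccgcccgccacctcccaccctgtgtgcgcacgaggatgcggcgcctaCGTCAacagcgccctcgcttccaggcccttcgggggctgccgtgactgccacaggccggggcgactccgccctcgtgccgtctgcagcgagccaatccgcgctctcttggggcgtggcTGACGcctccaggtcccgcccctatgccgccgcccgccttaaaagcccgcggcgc
Prkar2b (chr12:32061297-32061527, minus strand): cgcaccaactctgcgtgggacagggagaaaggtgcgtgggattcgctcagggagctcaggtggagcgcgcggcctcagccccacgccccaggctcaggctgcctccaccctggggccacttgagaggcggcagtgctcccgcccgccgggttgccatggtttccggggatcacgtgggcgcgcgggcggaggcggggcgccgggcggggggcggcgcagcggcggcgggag
Of the genes with a half-site that were tested, Gnas was called lower and Adrb1 and Rgs2 were not called, and of those without one, Adcy3 and Prkar2b were called lower and Pde4d was not.

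Adrb3, on chromosome 8 (GRCm38, 27225776 to 27250616, minus strand), had 132 and 174 FPKM in Sox4f/f mice 1 and 2, and 119 and 199.6 FPKM under the Sox4-MKO label. The 2 mice of that label thus bracketed the 2 Sox4f/f mice. The means were 153 ± 29.96 and 159 ± 57.2 FPKM (SD, n = 2 mice each), with a log2 fold change of 0.022 (limma standard error 0.30, adjusted p = 0.977). The sign of this value changed when single libraries were left out, from -0.35 to 0.39, so no difference in Adrb3 was detectable. A transcript on the other strand, Gm45470, overlaps its exons and had at most 2.08 FPKM.

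Adrb1 (chromosome 19, 56722199 to 56733113, plus strand) encodes the β1 receptor, which is known for its role in brown adipocyte precursors. It had 6.28 and 14.5 FPKM in Sox4f/f mice 1 and 2, and 7.09 and 6.98 FPKM under the Sox4-MKO label. Only Sox4f/f mouse 2 stood above the rest, and the genotypes overlapped (log2 fold change -0.40, limma standard error 0.38, adjusted p = 0.625). This library decided the value. Adrb1 was called lower by limma without Sox4f/f mouse 1 (-0.95) and had a log2 fold change of 0.14 without Sox4f/f mouse 2.

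Adra2a (chromosome 19, 54044151 to 54048982, plus strand) encodes the α2A receptor, which lowers cAMP. It was at the floor of detection in brown fat, with 0.0212 and 0.0182 FPKM in Sox4f/f mice and 0.183 and 0.216 FPKM under the Sox4-MKO label. At the estimated depth these values stand for 0.823 to 1.41 fragments per Sox4f/f library and for 8.21 to 18.2 fragments per Sox4-MKO library. The rounded sums, 2 against 22 fragments, gave a depth-adjusted ratio of 9.69 with a 95% exact binomial interval of 2.38 to 85.0, which covers counting error only. The genotypes did not overlap, as for 51.3% of all tested genes. Without any FPKM limit, limma called it higher (log2 fold change 0.23), and with a limit of 0.1 FPKM it did not.

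Of the α-adrenergic receptors, 2 α1 receptors were tested and both were called lower, against 8.28% of all tested genes. Adra1a, which signals through Gαq and calcium, had 55.4 and 42.0 FPKM in Sox4f/f and 20.7 and 23.8 FPKM under the Sox4-MKO label (log2 fold change -1.09, limma standard error 0.18, adjusted p = 0.196). Adra1d had 19.3 and 17.5 against 13.8 and 9.75 FPKM (-0.61, limma standard error 0.20, adjusted p = 0.267). In both genes both Sox4f/f mice lay above both other mice, as for 29.6% of all tested genes. The call of Adra1d was lost without Sox4f/f mouse 1 (-0.55), without Sox4f/f mouse 2 (-0.68) and without Sox4-MKO mouse 2 (-0.38). Rescaling to the general adipocyte markers (-0.46) or to a common sum without muscle markers (-0.39) lost it as well. Adra1b, Adra2b and Adra2c were below 0.5 FPKM in every library and were not tested.

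Shares within a gene family do not depend on how libraries are scaled to each other. Of the summed FPKM of the 8 adrenergic receptors named above, Adrb3 made up 61.9% and 70.1% in Sox4f/f mice and 73.7% and 82.8% in the others, which is a difference of 12.3 percentage points (exact permutation p = 0.333, the smallest possible), or of 7.77 without Sox4-MKO mouse 2. The nearest values of the 2 labels were those of Sox4f/f mouse 2 and Sox4-MKO mouse 1. The sum of these receptors overlapped between the labels, at 231 ± 25.1 and 201 ± 56.6 FPKM.

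**Figure D2:**
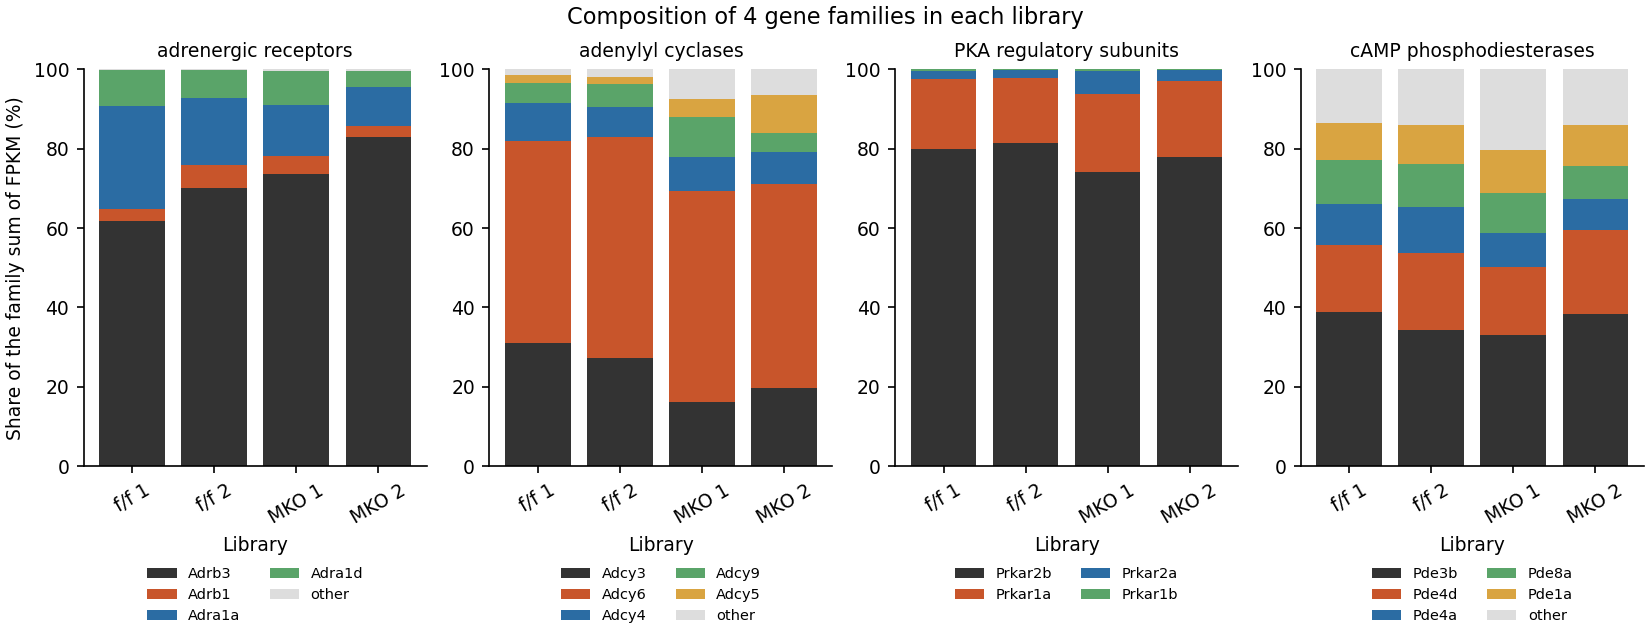
Share of each gene in the summed FPKM of its family (percent, bars to 100) in the 4 libraries, for the 8 adrenergic receptors named, adenylyl cyclases, PKA regulatory subunits and cAMP phosphodiesterases. Black is Adrb3, Adcy3, Prkar2b or Pde3b. The black share of the cyclases is 27.3% to 30.9% in Sox4f/f and 16.1% to 19.7% under the Sox4-MKO label, whereas that of the phosphodiesterases overlaps.

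Gnas lies on chromosome 2 (174284320 to 174346744, plus strand) and has 24 annotated transcripts, Gαs and others, which the gene value does not separate. It had 1910 and 1516 FPKM in Sox4f/f mice 1 and 2 and 803 and 981 FPKM under the Sox4-MKO label. The higher of the latter was below the lower of the former. Gnas was called lower, from a mean of 1713 ± 278 to 892 ± 126 FPKM (SD, n = 2 mice each), with a log2 fold change of -0.94 (limma standard error 0.19, adjusted p = 0.205). The call stayed under each alternative run, with log2 fold changes from -1.10 to -0.61. After quantile normalization (-0.61) the call was only just kept, with an unadjusted p of 0.048 by limma. Nespas and Gm20721 overlap Gnas exons on the other strand. Gm20721 had 1.34 to 3.52 FPKM.

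Of the Gαi subunits, which oppose Gαs at the cyclases, none was called lower. Gnai1 was called higher, with 17.8 and 16.2 FPKM in Sox4f/f and 29.6 and 31.5 FPKM under the Sox4-MKO label (log2 fold change 0.81, limma standard error 0.13, adjusted p = 0.196). The more abundant Gnai2 (log2 fold change -0.041) and Gnai3 (-0.060) were not called. The ratio of Gnas to the sum of Gnai1, Gnai2 and Gnai3, a measure chosen after the values were seen, was 18.2 and 14.4 in Sox4f/f mice and 6.70 and 8.79 in the others. Gnao1, of another inhibitory Gα, and the β subunit Gnb1 were called lower at -0.63 and -0.38. The β subunit Gnb5 was called higher at 0.40.

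Adcy3 (chromosome 12, 4133103 to 4213525, plus strand) showed the largest decrease of the 9. It had 55.7 and 37.0 FPKM in Sox4f/f mice 1 and 2 and 16.2 and 19.6 FPKM under the Sox4-MKO label. Both of the latter were below both of the former. The mean was 46.3 ± 13.2 against 17.9 ± 2.40 FPKM (SD, n = 2 mice each), and the log2 fold change was -1.30 (limma standard error 0.24, adjusted p = 0.196). It was called under each alternative run, with values from -1.59 to -1.01. Cenpo, on the other strand with overlapping exons, had 1.79 to 3.37 FPKM and overlapped between the labels.

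Members of the cyclase family were called in both directions. Adcy6, the most abundant of them, was called lower, with 91.7 and 75.0 FPKM in Sox4f/f and 53.4 and 51.2 FPKM under the Sox4-MKO label (log2 fold change -0.66, limma standard error 0.14, adjusted p = 0.214). Adcy7 was called higher, with 1.93 and 1.97 against 3.29 and 3.43 FPKM (0.56, limma standard error 0.18, adjusted p = 0.261). Adcy2 was called higher as well, with 0.162 and 0.221 against 2.95 and 1.35 FPKM (1.36, limma standard error 0.34, adjusted p = 0.222). Its higher value was in Sox4-MKO mouse 1, the library with the highest muscle marker sum. Adcy4 (log2 fold change -0.64, adjusted p = 0.329) and Adcy5 (0.90, adjusted p = 0.344) were not called by limma. The family sum was 180 and 135 FPKM in Sox4f/f mice and 100.5 and 99.4 FPKM in the others, and the share of Adcy3 in it was 29.1 ± 2.53% against 17.9 ± 2.53% (SD, n = 2 each, exact permutation p = 0.333, the smallest possible).

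Prkar2b (chromosome 12, 31958476 to 32061296, minus strand) had 458 and 451 FPKM in Sox4f/f mice 1 and 2, and 299 and 359 FPKM under the Sox4-MKO label. The Sox4f/f mice were close to each other and above both other mice. The mean was 455 ± 4.52 against 329 ± 42.3 FPKM (SD, n = 2 mice each), with a log2 fold change of -0.47 (limma standard error 0.14, adjusted p = 0.243). The call was the least firm of the 3. By limma it was lost without Sox4f/f mouse 1 (-0.46), without Sox4f/f mouse 2 (-0.48), after quantile normalization (-0.36), after rescaling without mitochondrially encoded genes and Ucp1 (-0.40), after rescaling to the general adipocyte markers (-0.31), and after rescaling to a common sum without muscle markers (-0.24).

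Among the other PKA genes, the main catalytic subunit Prkaca was called lower, with 147 and 152 FPKM in Sox4f/f and 125 and 112 FPKM under the Sox4-MKO label (log2 fold change -0.33, limma standard error 0.12, adjusted p = 0.285). By limma the call of Prkaca was lost without Sox4f/f mouse 1 (-0.36), without Sox4f/f mouse 2 (-0.31) and without Sox4-MKO mouse 2 (-0.26). With the mouse number as a block and without a trended prior it was lost too. It was also lost after rescaling without mitochondrially encoded genes and Ucp1 (-0.26) and to the general adipocyte markers (-0.17). Rescaling to a common sum without muscle markers (-0.099) lost it as well. The second catalytic subunit Prkacb had a log2 fold change of -0.27 and was not called. The regulatory subunits Prkar1a (-0.21), Prkar1b (-0.24) and Prkar2a (0.67) were not called either. The share of Prkar2b in the summed regulatory subunits was 79.8% and 81.4% in Sox4f/f mice and 74.1% and 77.8% in the others, a difference of -4.67 percentage points (exact permutation p = 0.333, the smallest possible), or of -2.82 without Sox4-MKO mouse 1.

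Both tested genes for PKA inhibitor peptides, which block the free catalytic subunit, were called higher, against 7.95% of all tested genes. Pkig had 11.9 and 9.80 FPKM in Sox4f/f and 24.3 and 16.8 FPKM under the Sox4-MKO label (log2 fold change 0.85, limma standard error 0.22, adjusted p = 0.229). Pkia had 2.75 and 17.3 against 99.0 and 33.4 FPKM (2.82, limma standard error 0.92, adjusted p = 0.262). Pkia is known as the muscle form, and its 4 values stood in the same order as the sums of the muscle markers given above (167, 621, 12130 and 2158 FPKM). Its call was lost without Sox4-MKO mouse 1 and without Sox4f/f mouse 1, with log2 fold changes from 1.68 to 3.97 over the single libraries left out. The call of Pkig was lost without Sox4-MKO mouse 1 and without Sox4f/f mouse 2, with log2 fold changes from 0.59 to 1.10. Its order did not follow the muscle sums within Sox4f/f, where mouse 1 was higher.

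**Figure D3:**
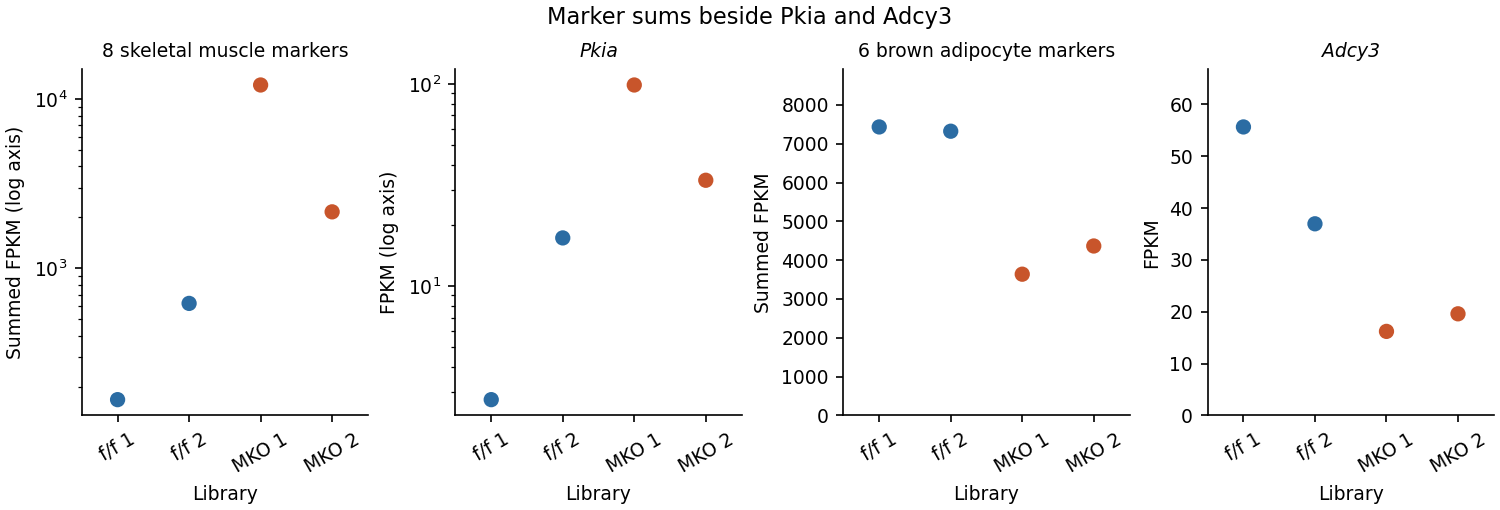
Summed FPKM of 8 skeletal muscle markers (log axis) beside Pkia (log axis), and of 6 brown adipocyte markers beside Adcy3 (axes from 0), 1 point per library, blue for Sox4f/f and orange for the Sox4-MKO label. Pkia, from 2.75 to 99.0 FPKM, has the order of the muscle sums. The brown adipocyte sums and Adcy3 are both lower in the orange points.

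Of 9 tested A-kinase anchor genes, whose products place PKA at membranes and organelles, 4 were called lower and 0 higher, against 8.28% and 7.95% of all tested genes. Log2 fold changes were negative for 7 of the 9, and for 56.0% of all tested genes. The largest change was in Akap1, the anchor of the outer mitochondrial membrane, with 159 and 135 FPKM in Sox4f/f and 64.5 and 85.2 FPKM under the Sox4-MKO label (log2 fold change -0.97, limma standard error 0.18, adjusted p = 0.196). Akap12 (-0.83), Akap13 (-0.46) and Akap8 (-0.45) were the others called lower. The calls of Akap13 and Akap8 were lost after rescaling to the general adipocyte markers (-0.31 and -0.30). They were also lost after rescaling to a common sum without muscle markers (-0.24 and -0.22). Akap1 and Akap12 stayed called under both rescalings. Of the cAMP sensors outside PKA, Rapgef3, which encodes EPAC1, was called lower, with 20.5 and 18.7 against 11.7 and 11.2 FPKM (-0.72, limma standard error 0.13, adjusted p = 0.196).

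Pde3b (chromosome 7, 114415281 to 114539251, plus strand), through which insulin restrains lipolysis, had 81.4 and 62.0 FPKM in Sox4f/f mice 1 and 2, and 60.0 and 68.3 FPKM under the Sox4-MKO label. The genotypes overlapped (log2 fold change -0.15, limma standard error 0.18, adjusted p = 0.699). Pde4d (chromosome 13, 108449948 to 109953461, plus strand, 20 annotated transcripts) had 34.9 and 35.2 FPKM against 30.8 and 37.7 FPKM. It overlapped as well (-0.038, limma standard error 0.15, adjusted p = 0.913). Together they held 50.2% to 59.4% of the summed FPKM of 16 cAMP phosphodiesterases in a library. The share of Pde3b was 36.6 ± 3.29% against 35.7 ± 3.65%, and that of Pde4d 18.1 ± 1.95% against 19.1 ± 2.92% (SD, n = 2 each, exact permutation p = 0.667 for both). Of the other 14 phosphodiesterases 11 were tested. Pde4a was called lower (21.8 and 20.9 against 15.4 and 14.1 FPKM, -0.51, adjusted p = 0.224 by limma) and Pde7a higher (3.26 and 4.05 against 7.80 and 6.33 FPKM, 0.79, adjusted p = 0.219 by limma).

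Rgs2 (chromosome 1, 143999338 to 144004161, minus strand), itself a gene that cAMP induces in many cells, had 112 and 71.0 FPKM in Sox4f/f mice 1 and 2, and 63.3 and 97.3 FPKM under the Sox4-MKO label. The values overlapped (log2 fold change -0.18, limma standard error 0.31, adjusted p = 0.791). Of 8 other tested RGS genes 0 were called by limma in either direction at an unadjusted p under 0.05, against 16.2% of all tested genes. Among the receptor kinases and arrestins, which switch receptors off, Grk3 alone of the 6 tested genes was called, with 30.1 and 36.7 FPKM in Sox4f/f and 13.5 and 22.0 FPKM under the Sox4-MKO label (log2 fold change -0.91, limma standard error 0.26, adjusted p = 0.243).

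Of 10 tested receptors other than adrenergic ones that couple to the cyclases in fat, 4 were called higher and 0 lower, against 7.95% and 8.28% of all tested genes. Log2 fold changes were positive for 8 of the 10 and negative for 2, against 56.0% negative over all tested genes. The 4 are receptors known to lower cAMP through Gαi, as is the adenosine receptor Adora1, which was not called (log2 fold change 0.015). Adora1 had 38.2 and 24.8 FPKM in Sox4f/f and 40.3 and 24.0 FPKM under the Sox4-MKO label. Mc5r (0.64), Tshr (0.61) and Gipr (0.23), which are not among those Gαi receptors, were also positive and were not called. Ptger3, the prostaglandin E2 receptor EP3, had 24.7 and 31.6 FPKM in Sox4f/f and 66.8 and 70.5 FPKM under the Sox4-MKO label (log2 fold change 1.26, limma standard error 0.16, adjusted p = 0.191). No tested gene had a smaller adjusted p. Hcar1, the lactate receptor, had a log2 fold change of 0.43, Hcar2, the niacin and ketone body receptor, of 0.49, and Npy1r, a neuropeptide Y receptor, of 0.67. The calls of these last 3 genes were each lost under quantile normalization. Without Sox4-MKO mouse 1 the log2 fold changes were 1.30 for Ptger3, 0.57 for Hcar1, 0.51 for Hcar2 and 0.63 for Npy1r. The calls of Hcar2 and Npy1r were lost in that run.

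Over the whole list of 98 other pathway genes, 97 were found by symbol and 80 were tested. Limma called 15 lower (18.75%, against 8.28% of all tested genes) and 12 higher (15%, against 7.95%). The genotypes did not overlap at 31 genes lower and 23 higher under the Sox4-MKO label, against 29.6% and 21.7% of all tested genes. The median log2 fold change of the 80 was -0.10. Without Sox4-MKO mouse 1, limma called 15 lower and 8 higher. Without Sox4f/f mouse 1 and without Sox4f/f mouse 2, limma called fewer genes of the list and fewer of all tested genes, in each direction. The medians of the list were then -0.087 and -0.11, and those of all tested genes -0.032 and -0.064, in the same order. Among the calls kept with each of the 4 libraries left out in turn were 4 of the 15 lower ones, Adcy6, Adra1a, Akap1 and Rapgef3, and, among the higher ones, Gnai1 and Ptger3. Scaling also bore on the balance. When the libraries were rescaled to the general adipocyte markers, which moved the median of all genes from -0.051 to 0.088, the list had 4 lower and 11 higher, and all tested genes had 169 lower and 1073 higher instead of 1066 and 1024. Adra1a, Akap1, Akap12 and Grk3 were the 4 lower ones under that rescaling.

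**Figure D4:**
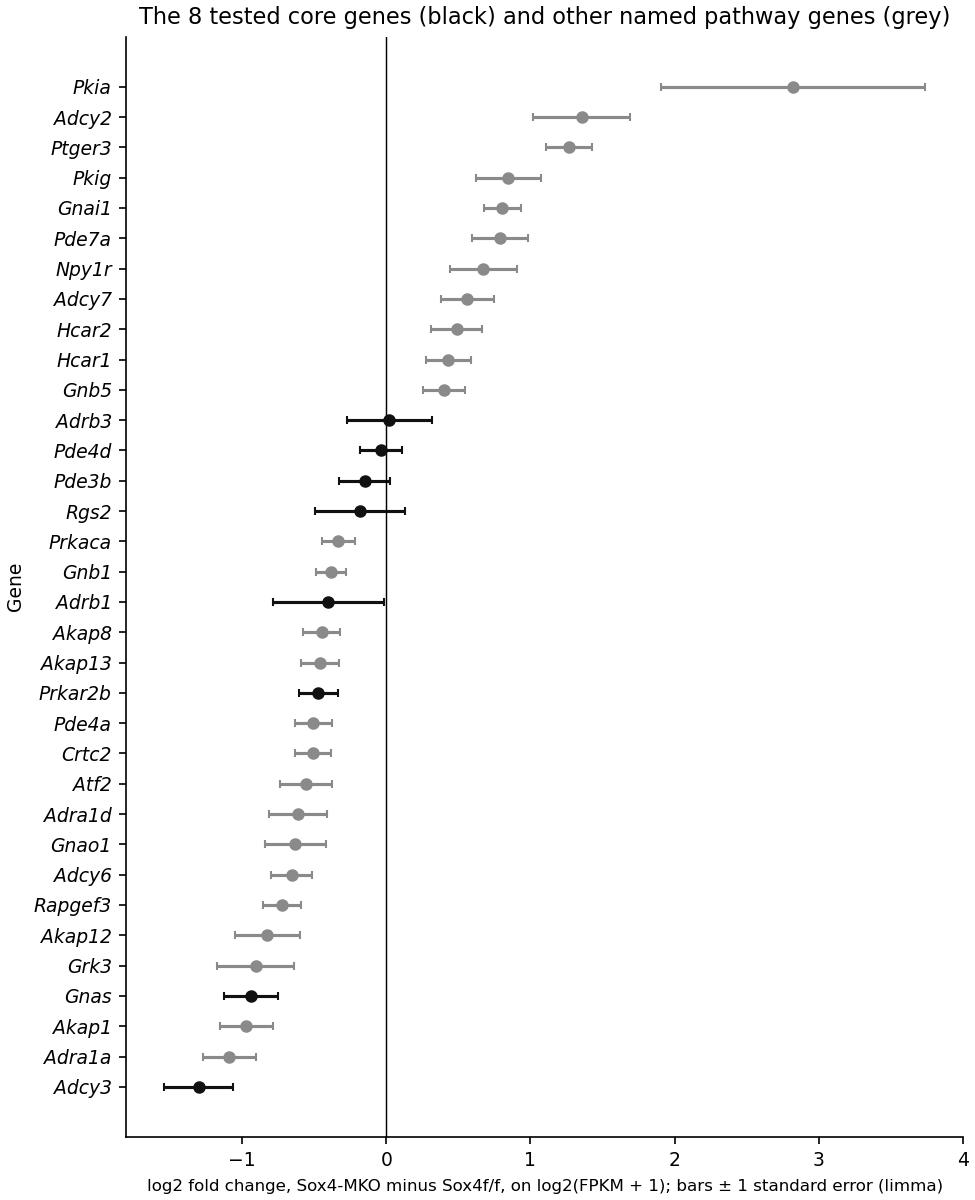
Log2 fold change (Sox4-MKO minus Sox4f/f, on log2(FPKM + 1)) of the 8 tested core genes in black and of other pathway genes called in grey, bars ± 1 standard error from limma. Adcy3 at -1.30 is the lowest, Pkia at 2.82 the highest with the widest bar, and Adrb3, Pde3b, Pde4d, Rgs2 and Adrb1 lie closest to 0 among the black points.

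At the far end of the chain, all 7 tested genes of the CREB family and its coactivators had negative log2 fold changes, against 56.0% of all tested genes, and 2 were called lower, against 8.28%. Crtc2, a coactivator that PKA signalling releases to the nucleus, had 20.98 and 20.73 FPKM in Sox4f/f and 14.1 and 14.7 FPKM under the Sox4-MKO label (log2 fold change -0.51, limma standard error 0.12, adjusted p = 0.216). Atf2, a factor acting downstream of PKA and p38 kinase, was the other (-0.55, limma standard error 0.18, adjusted p = 0.264). Creb1 itself (-0.016), Atf1 (-0.025) and Crem (-0.035) were close to 0 and above the median of all tested genes (-0.051). The calls of Crtc2 and Atf2 were lost after rescaling to the general adipocyte markers (-0.36 and -0.40). They were also lost after rescaling to a common sum without muscle markers (-0.29 and -0.33). Without Sox4-MKO mouse 1 the log2 fold changes were -0.48 for Crtc2 and -0.42 for Atf2, and the call of Atf2 was lost. Both calls were lost without Sox4f/f mouse 1 (-0.50 for Crtc2 and -0.39 for Atf2), and that of Crtc2 also without Sox4f/f mouse 2 (-0.52).

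Of 10 genes known to be induced by cAMP in brown adipocytes, 9 were tested, 3 were called lower and 0 higher, against 8.28% and 7.95% of all tested genes, with a median log2 fold change of -0.26. Ucp1, the uncoupling protein, had 1935 and 1814 FPKM in Sox4f/f mice and 733 and 1105 FPKM under the Sox4-MKO label (log2 fold change -1.06, limma standard error 0.23, adjusted p = 0.213). Ppargc1a, which encodes PGC-1α, had 48.2 and 22.4 against 13.2 and 14.2 FPKM (-1.21, limma standard error 0.37, adjusted p = 0.254). Nr4a3, a nuclear receptor, had 14.7 and 5.59 against 3.41 and 2.62 FPKM (-1.35, limma standard error 0.45, adjusted p = 0.269). In each of these 3 genes both Sox4f/f mice were above both others, as for 29.6% of all tested genes. Nr4a2 (log2 fold change -0.26), Fos (0.21) and Per1 (-0.14) were not called, nor were Nr4a1 (0.37) and Sik1 (-0.22). Nr4a1 had 10.3 and 35.7 FPKM in Sox4f/f mice and 18.7 and 33.8 FPKM in the others, and Sik1 had 5.87 and 26.2 against 6.81 and 16.6 FPKM, so that mouse 2 was the higher of each pair in both genes and both genotypes. Dio2, the deiodinase that activates thyroid hormone, had 51.9 and 42.8 against 10.1 and 33.5 FPKM and was not called (adjusted p = 0.343 by limma). Fgf21 was not tested, and was listed at 0 in both libraries labelled Sox4-MKO. Without Sox4f/f mouse 1, Ppargc1a alone was called. Without Sox4-MKO mouse 1 the calls were Ucp1 and Per1, and without Sox4-MKO mouse 2 they were Ucp1 and Dio2, so that those of Ppargc1a and Nr4a3 were lost both times.

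The genes called lower in the chain were set beside Plin1, a lipid droplet protein of all adipocytes that had 708 to 851 FPKM, as a measure chosen after the values were seen. Relative to Plin1, Gnas was 2.63 and 1.78 in Sox4f/f mice and 1.13 and 1.38 in the others. Adcy3 was 0.0767 and 0.0435 against 0.0229 and 0.0276. Prkar2b was 0.631 and 0.530 against 0.423 and 0.506. The ratios of all 3 genes to Plin1 thus stayed separate between the labels, narrowly so for Prkar2b. That of Adrb3 overlapped at 0.182 and 0.205 against 0.168 and 0.281. Plin1 itself was lower under the Sox4-MKO label (708 and 710 FPKM) than in Sox4f/f mice (726 and 851 FPKM). Ratios to the other general adipocyte markers were not taken. After rescaling to all general adipocyte markers, the call of Prkar2b was lost (log2 fold change -0.31). Those of Gnas (-0.78) and Adcy3 (-1.15) stayed.

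The genes with a profile most like that of Adrb3 over the 4 libraries, by Euclidean distance between log2(FPKM + 1) values centred on their mean, were H2-K2 (0.0716), Zic1 (0.0908), Stip1 (0.109), Gm16046 (0.116) and Vegfc (0.118), of 12876 candidates. With 4 libraries such closeness describes these mice only.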

How the data were processed

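RNA sequencing libraries of brown adipose tissue from 2 Sox4f/f and 2 Sox4-MKO mice were analysed, with genotypes and mouse numbers taken from the sample labels. The authors deposited FPKM values, 1 per gene and library, and no counts. The submitters' processing notes name mm10, Cufflinks 2.1.1 and Cuffdiff. The aligner, the gene annotation and whether strand was used in counting are not given in the sources used here, so fragments of overlapping genes on opposite strands may have been shared. The labels describe a column kit and a stranded mRNA library, and the methods describe TRIzol and TruSeq.

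log2(FPKM + 1) was computed from the deposited values, and these were tested with limma 3.58.1 (R 4.3.3), in a model of genotype alone with a trended prior, on rows with a mean above 1 FPKM in at least one genotype, with Benjamini-Hochberg adjustment. Tests are two-sided. limma p-values rest on the spread between 2 mice per genotype, moderated by the prior, which is taken from the spread of all tested genes. Family shares were compared with exact permutation tests.

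Depth was estimated from the lowest non-zero values among single-transcript genes of at least 3000 nt in GENCODE M21. This length was set after a shorter limit had ended on another cluster of values in 2 libraries. The estimates are rough, because the transcript lengths used by the authors are unknown. Positions come from GENCODE M21 (GRCm38, the same assembly as mm10) by gene symbol, and promoter sequences from RefSeq (GRCm38.p6).

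The genes and all gene lists were chosen with earlier results of these data known. Named genes are Sox4, the 9 genes, other adrenergic receptors, genes of the pathway and cAMP-responsive lists with an unadjusted p under 0.05 and no overlap, and the 5 genes nearest to Adrb3. A gene of the lists is not reported here, and it was left out of the family shares. Other genes are named to complete their family, after their values were seen. The alternatives were a replicate block, each library left out, 4 rescalings and quantile normalization, FPKM limits of 0.1, 5 and none, pseudocounts of 0.1 and 0.01, and limma without a trended prior. One rescaling (to a common FPKM sum without the muscle markers) was added after the data were seen.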

Additional observations from a re-analysis of the deposited data

How the results depend on the processing

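Gnas and Adcy3 were called lower under each of the 16 alternatives, and the calls of 3 lower genes among the 9 ranged from 2 to 3, the lost one being Prkar2b, except that without Sox4f/f mouse 1 Adrb1 was called in its place. With single libraries left out, all genes called lower ranged from 404 to 1012 and higher from 445 to 1559, against 1066 and 1024, and those called after adjustment from 0 to 5. The pathway list ranged from 5 to 15 lower and from 4 to 11 higher, and the cAMP-responsive genes from 1 to 3 lower, with the lowest values without Sox4f/f mouse 1. Rescaling to the general adipocyte markers gave 169 genes lower, 4 pathway genes lower and a pathway median of 0.034. Rescaling to a common FPKM sum without muscle markers, which moved the median of all genes to 0.15, gave 285 genes lower, 1972 higher, 5 pathway genes lower and a pathway median of 0.10. The pathway median was -0.039 after rescaling without mitochondrially encoded genes and Ucp1, and -0.060 without an FPKM limit, where 1 of the 9 genes, Adra2a, was called higher. The last count differs because more genes were tested, and for the others the cause was not tested.

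Genes that were not called changed sign. Single libraries left out gave log2 fold changes from -0.32 to 0.71 for Sox4, from -0.95 to 0.14 for Adrb1, from -0.35 to 0.39 for Adrb3, from -0.34 to 0.045 for Pde3b, from -0.18 to 0.10 for Pde4d and from -0.51 to 0.14 for Rgs2. Adrb3 was at -0.00017 under a common median. Pde4d was at 0.033 without mitochondrially encoded genes and Ucp1. Under the general adipocyte markers Pde3b was at 0.0080 and Pde4d at 0.12, and under the common sum Pde3b was at 0.084, Pde4d at 0.19 and Rgs2 at 0.049. The differences in share, in percentage points with single libraries left out, ranged from -2.18 to 0.70 for Adrb1 and from 7.77 to 16.8 for Adrb3 among the adrenergic receptors, from -6.52 to -2.82 for Prkar2b, from -3.49 to 1.67 for Pde3b and from -1.06 to 3.07 for Pde4d.

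The mouse numbers are shared by the labels only. Deviations of same-numbered mice had r = -0.012 over 12877 genes, so the numbers were not taken as pairs. With the number as a block, 3 of the 9 genes were called lower and 0 higher, with 13 pathway genes lower and 8 higher and 938 of all genes lower and 970 higher. Depth limits Adra2a, at about 1 fragment per Sox4f/f library, whereas each other gene of the 9 had at least 255 estimated fragments in a library.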

Other observations

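Beyond the cAMP chain, 2 further lists were written after the values of the pathway had been seen, and are given as values only. The cGMP arm, through which nitric oxide and natriuretic peptides act on brown adipocytes, had 8 genes, of which 5 were tested. limma called 2 of them higher and 0 lower at an unadjusted p under 0.05, against 7.95% and 8.28% of all tested genes. Prkg1, the cGMP-dependent protein kinase I, had 1.26 and 1.41 FPKM in Sox4f/f mice and 9.76 and 2.86 FPKM under the Sox4-MKO label, with the higher value in the library with the highest muscle marker sum (log2 fold change 1.47, limma standard error 0.52, adjusted p = 0.286). Prkg2 had 0.163 and 0.319 against 1.04 and 1.55 FPKM, with the higher value in Sox4-MKO mouse 2 (0.88, limma standard error 0.27, adjusted p = 0.254). The guanylyl cyclase subunits Gucy1a1 and Gucy1b1 overlapped between the labels, with log2 fold changes of 0.0061 and -0.0073.

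Of 10 genes for Gγ subunits, the partners of the Gβ subunits, 6 were tested. limma called 0 of them in either direction at an unadjusted p under 0.05, against 16.2% of all tested genes, and 0 after adjustment. Gng5, the most abundant, had 219 and 224 FPKM in Sox4f/f mice and 209.6 and 174 FPKM in the others (log2 fold change -0.21, limma standard error 0.14, adjusted p = 0.485). The part of the muscle transcripts in the values of Prkg1 was not tested.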
